A study of Mus musculus with 9 samples.

Results

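The genes described here are the globin genes Hba-a1, Hba-a2, Hba-x, Hbb-b1, Hbb-b2, Hbb-bh1 and Hbb-y and the erythroid genes Alas2 and Slc4a1, measured by RNA-seq in the fetal mouse brain. They were chosen by these same values, for a higher level in EtOH-exposed unaffected offspring and a lower adult globin level in affected offspring, so their levels below are a description and carry no test. All 9 symbols were found, in 7 of the 27095 loci of the table, since 3 of these rows join several gene names.

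The samples were 9 C57BL/6 fetuses (C57BL/6J in the methods) collected on gestational day 17 (GD17), with 3 in each of 3 groups. Control fetuses came from dams injected with lactated Ringer's solution on GD7, and the exposed fetuses from dams given 2.9 g/kg EtOH intraperitoneally on that day. Exposed fetuses were sorted by ocular and craniofacial defects into the affected group, which had them, and the unaffected group, which did not. Fetal brain is the tissue named by the labels and cortex the one named by the methods, and the sources used here do not say whether blood was washed out of it. No genetic change, transgene or cell sort was part of the design.

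Hemoglobin is built from alpha-like and beta-like globin chains that each carry a heme group. In the mouse, primitive red cells from the yolk sac make the embryonic chains from Hba-x (zeta), Hbb-bh1 and Hbb-y (epsilon y), and definitive red cells from the fetal liver make the adult chains from Hba-a1, Hba-a2 and the adult beta genes. Alas2 encodes the erythroid form of the first enzyme of heme synthesis, and Slc4a1 encodes band 3, the anion exchanger of the red cell membrane. Red cells reach the cortex in its vessels, and these genes are used as markers of blood in brain tissue.

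The 110 bases before the annotated start are shown for members whose levels differed in pattern, the embryonic Hba-x and Hbb-y, the adult alpha and beta genes, and Alas2. Sequences are from RefSeq on GRCm38.p6, which is the mm10 build of the table, and are printed 5' to 3' on the strand of the gene. Capitals mark 4 motifs that were searched by their letters. The TATA box was searched as TATAA on the given strand only. The other motifs were searched on both strands, the CCAAT box as CCAAT or its reverse complement ATTGG, the CACCC box as CACCC or GGGTG, and the GATA motif as GATAA or TTATC.
Hba-x: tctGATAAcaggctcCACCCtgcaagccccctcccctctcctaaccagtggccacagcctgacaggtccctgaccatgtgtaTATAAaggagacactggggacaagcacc
Hba-a1: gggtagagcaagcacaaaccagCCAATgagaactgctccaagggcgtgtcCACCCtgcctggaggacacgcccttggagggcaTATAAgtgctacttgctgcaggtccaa
Hbb-y: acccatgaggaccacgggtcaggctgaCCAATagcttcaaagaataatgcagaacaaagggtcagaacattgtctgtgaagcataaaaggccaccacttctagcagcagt
Hbb-bs: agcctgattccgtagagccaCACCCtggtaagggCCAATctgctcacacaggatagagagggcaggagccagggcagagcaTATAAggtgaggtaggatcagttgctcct
Hbb-bt: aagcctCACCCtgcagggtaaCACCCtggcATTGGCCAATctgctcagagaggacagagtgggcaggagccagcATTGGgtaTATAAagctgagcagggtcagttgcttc
Alas2: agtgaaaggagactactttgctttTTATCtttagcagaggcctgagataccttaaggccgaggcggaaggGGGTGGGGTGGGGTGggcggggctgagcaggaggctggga
The windows are chr11:32276490-32276599 (plus strand) for Hba-x, chr11:32283562-32283671 (plus) for Hba-a1, chr7:103853208-103853317 (minus) for Hbb-y, chr7:103827929-103828038 (minus) for Hbb-bs, chr7:103813924-103814033 (minus) for Hbb-bt and chrX:150547307-150547416 (plus) for Alas2. Hba-x held TATAA with its first base at -28, CACCC at -95 and GATAA at -107, where -1 is the base before the start. Hba-a1 held TATAA at -27, CACCC at -60 and CCAAT at -88. Hbb-bs held TATAA at -29, CCAAT at -76 and CACCC at -90, and Hbb-bt held 1 TATAA, 3 CCAAT matches of which 2 abut, and 2 CACCC. Hbb-y held CCAAT alone, at -83, and Alas2 held 3 abutting CACCC matches and GATAA at -86, both read on the other strand. Of 27025 promoter windows of this length, 8.47% held TATAA, 21.0% CCAAT, 29.2% CACCC and 9.57% GATAA. A match is a description of the letters and not a bound site. The upstream sequences of Hba-a1 and Hba-a2 were the same at all of 200 bases once the annotated starts were shifted by 3 bases.

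The table gives 1 FPKM per group and locus (fragments per kilobase of exon, scaled to the mapped fragments of the library), which the authors' software took over the 3 fetuses of a group, so no value has an error between animals. The 3 joined rows cannot be split into genes. Both alpha rows carry the names Hba-a1 and Hba-a2, at chr11:32283672-32284493 and chr11:32296489-32297310, and the coding sequences of these genes differ at 1 of 429 bases, with 87.1% of 50-base windows the same. The beta row, at chr7:103812522-103843162, is named Beta-s, Hbb-b1, Hbb-b2 and Hbb-bh1 and spans the annotated genes Hbb-bt, Hbb-bs, Hbb-bh2 and Hbb-bh1. Hbb-bs and Hbb-bt, the adult beta genes on this chromosome, differ at 1 of 444 coding bases and share 92.9% of the windows. The embryonic Hbb-bh1 is therefore counted with the adult beta genes and could not be measured alone. Hba-x and Hbb-y have rows of their own and shared no 50-base coding window with Hba-a1 and Hbb-bs, respectively.

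Adult globin RNA was abundant in every group, highest in unaffected and lowest in affected offspring. The beta row stood at 5357 FPKM in control, 6924 in unaffected and 3277 in affected fetuses. The first alpha row stood at 199.8, 263 and 163 FPKM in the same order. The second alpha row stood at 236, 304 and 189 FPKM. All 3 adult-type rows therefore had the order unaffected, control, affected, and their summed FPKM in unaffected offspring was 1.29 times that of control, while that of affected offspring was 0.626 times control. Sums are led by the beta row, and the alpha rows differed less between affected and control offspring. On the log2 scale, the unaffected to control ratio was 0.37 for the beta row and 0.40 and 0.36 for the alpha rows. The affected to control ratio was -0.71 for the beta row and -0.30 and -0.32 for the alpha rows. Affected against unaffected, it was -1.08 for the beta row and -0.70 and -0.68 for the alpha rows. The 3 comparisons share their groups, so the last ratio follows from the first pair and adds no separate evidence.

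**Figure D1:**
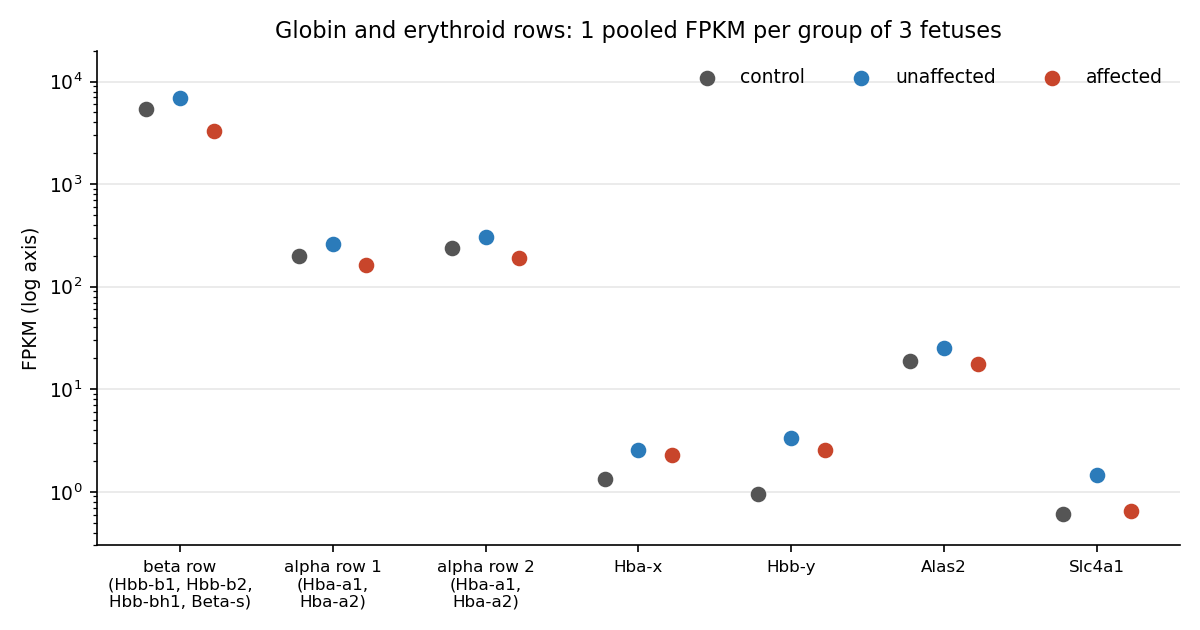
FPKM of the 7 member rows on a log axis, with 1 point for each group of 3 fetuses and no error bar because the table holds no values of single animals. The beta row lies between 3277 and 6924 FPKM, and the embryonic Hba-x and Hbb-y lie between 0.953 and 3.34 FPKM, with control lowest.

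The embryonic globins had another order, lowest in control and higher in both exposed groups. Hba-x, the embryonic alpha-like gene at chr11:32276600-32278115, stood at 1.33 FPKM in control, 2.58 in unaffected and 2.29 in affected fetuses. Hbb-y, the embryonic beta-like gene at chr7:103851754-103853207, stood at 0.953, 3.34 and 2.56 FPKM. Against control, the log2 ratio of Hba-x was 0.95 in unaffected and 0.78 in affected offspring, and that of Hbb-y was 1.81 and 1.42. Summed, the embryonic pair was 2.59 times control in unaffected and 2.12 times control in affected offspring. Between the exposed groups the levels were closer, with affected against unaffected at -0.17 for Hba-x, which became 0.13 when each group was rescaled to its total FPKM, and -0.39 for Hbb-y on the log2 scale.

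These embryonic levels rest on few fragments. From the smallest FPKM steps of loci of like length, Hba-x was estimated to hold 64 fragments in control, 137 in unaffected and 151 in affected fetuses, over the 3 libraries of a group. The transcript of 801 nt used for it starts at chr11:32276400, before its row at chr11:32276600. Its true fragments may thus be fewer and its interval wider. Hbb-y was estimated at 32, 128 and 121 fragments. The 95% exact Poisson interval of Hba-x was 1.03 to 1.70 FPKM in control, 2.16 to 3.05 in unaffected and 1.94 to 2.68 in affected offspring. For Hbb-y it was 0.652 to 1.35, 2.79 to 3.98 and 2.12 to 3.06 FPKM. These intervals describe counting error only and are no test, since the genes were chosen on these values, and 1 fetus with a high level could carry a group value, which pooled values cannot show.

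The balance between the chains also differed. The beta row was 12.3 times the summed alpha rows in control, 12.2 times in unaffected and 9.32 times in affected fetuses, on the FPKM scale, which is per length. For every 1000 FPKM of adult alpha there were 3.06 FPKM of Hba-x in control, 4.54 in unaffected and 6.50 in affected fetuses. For every 1000 FPKM of the beta row there were 0.178 FPKM of Hbb-y in control, 0.483 in unaffected and 0.780 in affected fetuses. Hba-x and Hbb-y together made up 0.0394% of all globin FPKM in control, 0.0790% in unaffected and 0.133% in affected fetuses. Within a group these ratios do not depend on how the libraries were scaled. The share of Hba-x and Hbb-y was thus highest in affected offspring, where their FPKM was above control and that of the adult-type rows below it. The embryonic Hbb-bh1 is counted in the beta row, so the share of all embryonic globin is not known.

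**Figure D2:**
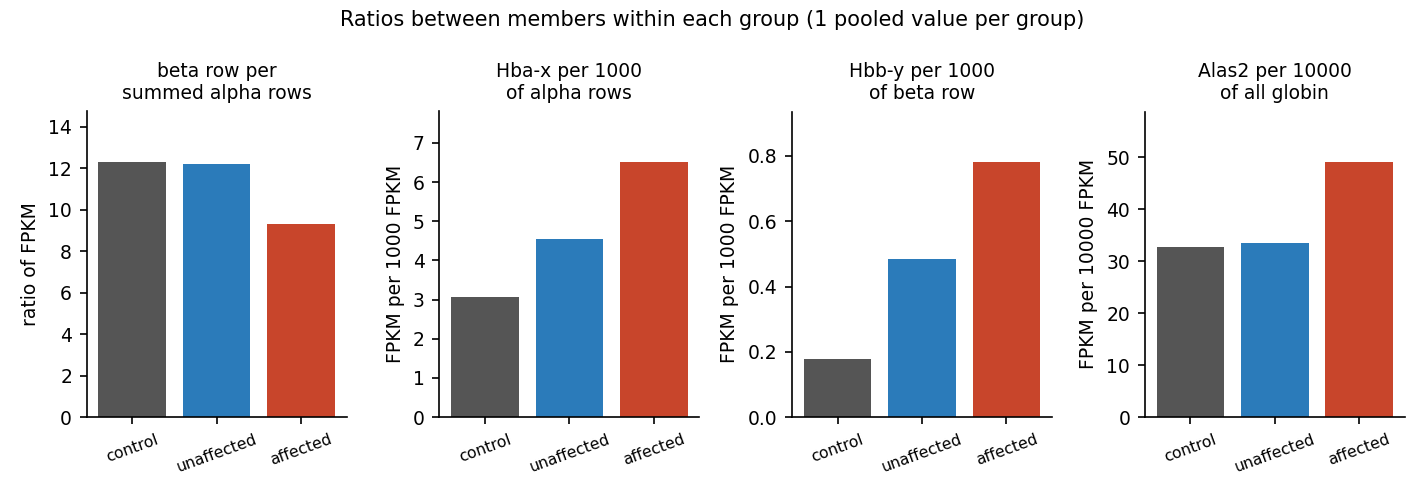
Ratios between member rows within each group, as bars from 0, with 1 pooled value per group and no error. Alas2 has a longer transcript than the globins, and log2 ratios between groups moved with transcript length. The beta to alpha ratio is 9.32 in affected offspring and 12.3 in control, while Hba-x relative to adult alpha, Hbb-y relative to the beta row and Alas2 relative to all globin are highest there, at 6.50, 0.780 and 49.0.

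The other erythroid members differed in unaffected offspring and lay near control in affected offspring. Alas2, at chrX:150547417-150570622, stood at 18.9 FPKM in control, 25.2 in unaffected and 17.8 in affected fetuses, with log2 ratios against control of 0.41 and -0.09, the latter 0.075 when rescaled to loci with 1 gene name. Slc4a1, at chr11:102348820-102365281, stood at 0.604, 1.46 and 0.649 FPKM, with log2 ratios of 1.27 and 0.10. Its estimated fragments were 198, 519 and 282, with Poisson intervals of 0.523 to 0.694, 1.33 to 1.59 and 0.576 to 0.730 FPKM for counting error. Relative to all globin, which is mostly the beta row, Alas2 stood at 32.6 per 10000 FPKM in control, 33.6 in unaffected and 49.0 in affected fetuses. Its transcript of 2037 nt is longer than those of the globins. In affected against control offspring, loci of 2000 to 5000 nt had a median log2 ratio of 0.06 and those of 500 to 900 nt one of -0.28. The part of length in this ratio was not tested. Relative to 1000 FPKM of Alas2, Slc4a1 stood at 31.9, 57.9 and 36.5.

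Of the 6 member rows with a mean of at least 1 FPKM over the groups, 2 (Hba-x and Hbb-y) were at least 1.5-fold higher in unaffected than in control offspring. Across the table, 2.45% of 15455 loci met this rule, 0.518% of the 12354 loci that carry 1 gene name, and 1.02% of those with 1 name and a mean of 1 to 4 FPKM, the range of the embryonic pair. In affected against control offspring the same 2 rows were higher, against 3.47% of all loci, 0.559% of loci with 1 name and 1.23% of those with 1 name at 1 to 4 FPKM. The beta row alone was lower, against 3.10% of all loci and 1.45% of loci with 1 name. In affected against unaffected offspring, the beta row and both alpha rows were lower, against 5.10% of all loci and 3.46% of loci with 1 name. Slc4a1, whose mean of 0.904 FPKM was under that minimum, was also past 1.5-fold in unaffected against control and in affected against unaffected offspring. Since the members were picked on these contrasts, nothing is read from their counts. The median log2 ratio of all loci was 0.01 in unaffected against control, 0.02 in affected against control and 0.01 in affected against unaffected offspring.

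Log2 ratios in this table moved with transcript length, which touches every globin row. The annotated globin transcripts measure 554 to 801 nt, and 647 other loci with 1 name have a median transcript of 500 to 900 nt. In affected against control offspring, these short loci had a median log2 ratio of -0.28 with a 5th to 95th percentile of -0.60 to 0.11, so both alpha rows lay near the middle of that range and the beta row below it. In unaffected against control offspring, their median was 0.13 with percentiles of -0.14 and 0.33, and all 3 adult-type rows lay just above. In affected against unaffected offspring, their median was -0.43 with percentiles of -0.71 and 0.07, so the alpha rows lay inside and the beta row below. Of these short loci, 21.3% were at least 1.5-fold lower in affected than in unaffected offspring, and 5.87% in affected than in control offspring. Hba-x and Hbb-y lay above the range against control in both exposed groups. Among loci of 2000 to 5000 nt, the range of Alas2 and Slc4a1, the median was -0.01 in unaffected and 0.06 in affected offspring against control. What part length has in the globin ratios was not tested.

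**Figure D3:**
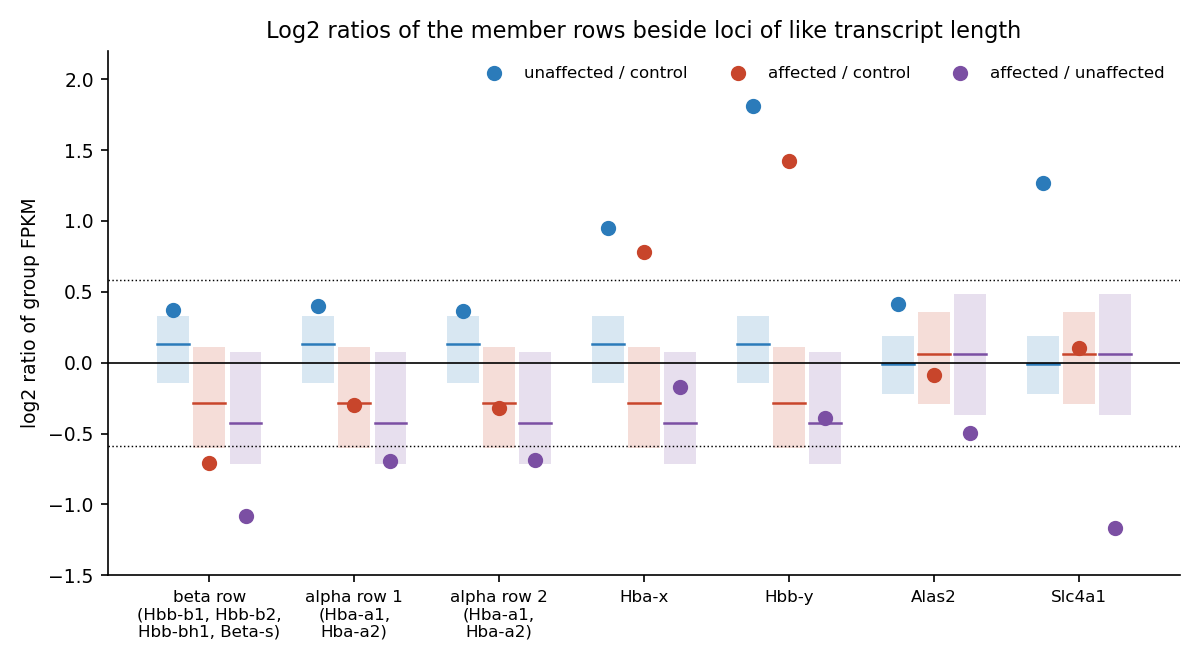
Log2 ratios of group FPKM for the 7 member rows in 3 comparisons (points). Shaded bars span the 5th to 95th percentile, with the median as a line, of other loci with a transcript of 500 to 900 nt for the globins and 2000 to 5000 nt for Alas2 and Slc4a1, and dotted lines mark 1.5-fold. The alpha rows at -0.30 and -0.32 in affected against control lie close to the short-locus median of -0.28, the beta row at -0.71 lies below the bar, and Hba-x and Hbb-y lie above it.

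Other genes of the red cell were described from lists chosen with earlier results of these data known. The lists for heme synthesis, the membrane and its skeleton, erythroid regulators, and enzymes and maturation held 73 symbols, of which 69 were found in 69 rows, 45 with a mean of at least 1 FPKM. Many of those 45 are also used by neurons or all cells, and all 45 carry 1 gene name. In unaffected against control offspring, 1 was at least 1.5-fold higher (2.45% of all loci, 0.518% of loci with 1 name). In affected against control, 1 was lower (3.10% and 1.45%), and in affected against unaffected, 3 were lower (5.10% and 3.46%). These counts are near the shares over all loci and above those over loci with 1 name, and nothing is read from so few rows. Isg20, an exonuclease gene, stood at 1.93 FPKM in control, 2.01 in unaffected and 0.997 in affected fetuses. Prdx2, which encodes a peroxiredoxin abundant in red cells and also present in neurons, stood at 1378, 1602 and 1061 FPKM.

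No other gene of heme synthesis was past 1.5-fold in any comparison, nor was Alas2. Of the 13 rows of that list, 11 were above control in unaffected offspring, with a median log2 ratio of 0.13, and 12 were below control in affected offspring, with a median of -0.16. Over all 15455 loci, 51.7% were above control in unaffected and 47.0% below it in affected offspring. Loci with 1 name of 900 to 2000 nt had medians of 0.09 and -0.14, and the list was not matched for length. Rescaling to loci with 1 name adds 0.16 to each affected to control ratio, the size of this list's median. Rescaling to total FPKM takes 0.34 from each unaffected to control ratio, more than the list's highest of 0.26. The part of length in these ratios was not tested. Alas1, the form of the enzyme used outside red cells, stood at 16.2, 15.8 and 16.0 FPKM in control, unaffected and affected fetuses. Fech, which inserts the iron, stood at 13.7, 15.1 and 13.8 FPKM. The 7 measured regulators with a mean of at least 1 FPKM, among them Bcl11a and Sox6, which neurons also express, had medians of -0.05 in unaffected and 0.29 in affected offspring against control.

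The rows of these 4 lists with a mean below 1 FPKM hold most of the genes that are specific to red cells. There were 24, of which 3 were listed at 0 in affected offspring and 21 had a value in every group. Of these 21, 19 were above control in unaffected offspring, with a median log2 ratio of 0.45, and 13 were below control in affected offspring, with a median of -0.12. Over 4849 loci with 1 name at 0.01 to 1 FPKM, 47.9% were above control in unaffected offspring, with a median of -0.02, and 54.7% were below control in affected offspring, with a median of -0.06. The unaffected group had the highest value in 18 of the 21 rows, against 33.8% of the low loci. Rhd, of the Rh blood group complex, stood at 0.138, 0.328 and 0.150 FPKM, Rhag at 0.0808, 0.165 and 0.0583, and Trim10 at 0.333, 0.610 and 0.311, in the order control, unaffected, affected. These genes were named after their values were seen, as was Hemgn, a nuclear gene of red cell precursors, at 0.102, 0.517 and 0.0534 FPKM and an estimated 17, 96 and 12 fragments.

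**Figure D4:**
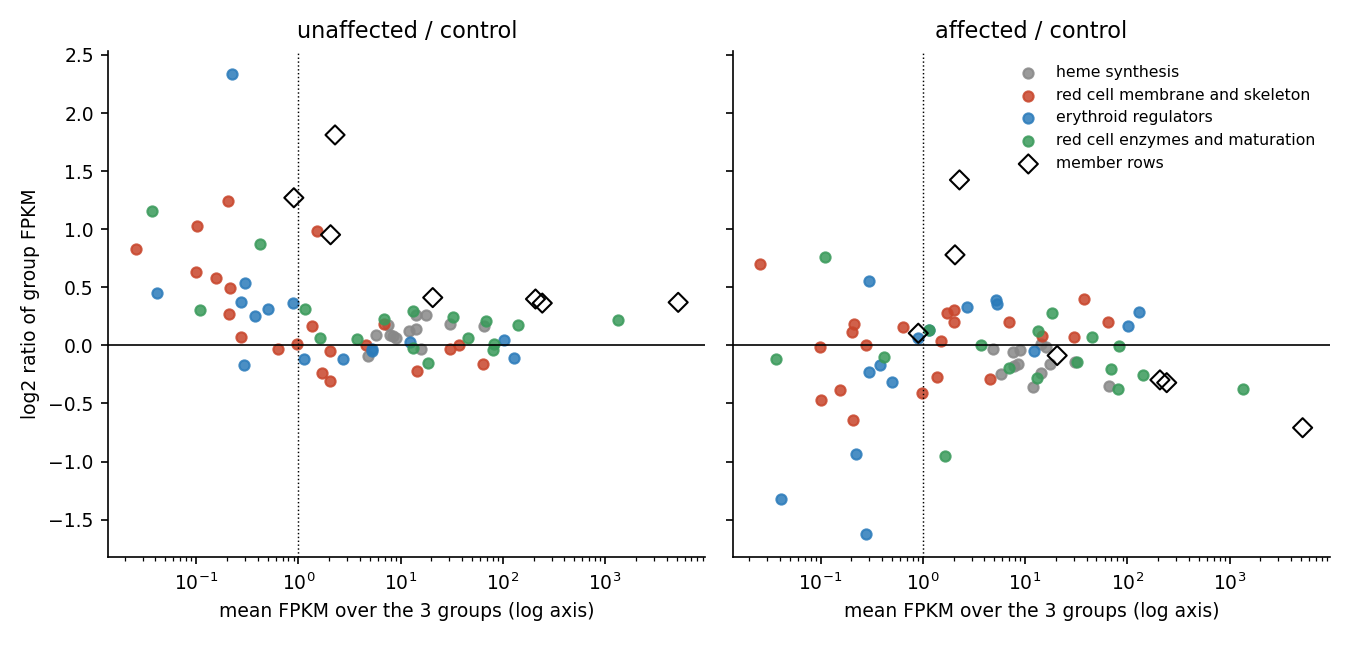
Log2 ratio to control against mean FPKM (log axis) for the rows of 4 red cell lists with a value in every group (dots) and for the member rows (open diamonds), in unaffected offspring on the left and affected offspring on the right. The dotted line marks 1 FPKM. To its left, 19 of 21 list rows lie above 0 in unaffected offspring and 8 of 21 in affected offspring.

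Among the regulators, the red cell factors Gata1 and Klf1 were low. Gata1 stood at 0.0449 FPKM in control, 0.0614 in unaffected and 0.0180 in affected fetuses, an estimated 6, 9 and 3 fragments. Klf1, the factor of the adult beta gene, stood at 0.271, 0.393 and 0.232 FPKM, an estimated 28, 45 and 32 fragments whose Poisson intervals overlapped. The row of the alpha chaperone gene Ahsp was not found under that symbol. In bulk tissue, fewer red cells or precursors and less RNA per cell cannot be told apart.

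Of 19 rows for handling iron and heme, 7 had the order unaffected, control, affected. At 1 FPKM or more, 31.1% of all loci and 34.7% of those with 1 name had that order. It was held by 20.5% of loci with 1 name at 0.01 to 1 FPKM, and 4 of the 19 rows were under 1 FPKM. The 19 rows, led by the ferritin genes, summed to 3423 FPKM in control, 3665 in unaffected and 3144 in affected fetuses. Of 15 rows with a mean of at least 1 FPKM, the median log2 ratio against control was 0.07 in unaffected and 0.03 in affected offspring, and none was past 1.5-fold against control. Hmox1, which encodes the inducible heme oxygenase that breaks down heme, stood at 3.63 FPKM in control, 5.43 in unaffected and 4.33 in affected fetuses. Blvra, the next enzyme of that path, stood at 13.5, 15.2 and 9.83 FPKM and was the only row past 1.5-fold, in affected against unaffected offspring. Tfrc, the transferrin receptor gene, stood at 8.49, 8.69 and 7.31 FPKM, and Car2, the carbonic anhydrase gene of red cells and glia, at 6.80, 7.95 and 5.95. Among other genes of the globin fold, Cygb stood at 8.37, 8.25 and 8.13 FPKM, and the rest were under 1 FPKM. Of these, Hbq1b of the alpha cluster stood at 0.118, 0.341 and 0.240 FPKM, lowest in control. Its neighbour Hbq1a stood at 0.160, 0.231 and 0.0451 FPKM and the neuronal Ngb at 0.541, 0.655 and 0.279, both highest in unaffected and lowest in affected fetuses. Mb stood at 0.131, 0.197 and 0.163 FPKM. Hbb-bh2 was listed at 0 in a row with the coordinates of the beta row, which spans this gene, so that 0 is not a measured level.

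Of 10 rows of neutrophil markers, which also come with blood, 7 had the order of the adult globins, which 20.5% of loci with 1 name at 0.01 to 1 FPKM and 34.7% of those at 1 FPKM or more had. S100a8 stood at 4.89 FPKM in control, 7.89 in unaffected and 2.17 in affected fetuses, and S100a9 at 3.62, 5.41 and 1.42. The list of 10 rows summed to 10.04, 15.1 and 4.39 FPKM, mostly from that pair, with 8 rows under 1 FPKM. Elane was listed at 0 in every group, in a row spanning chr10:79697305-80369637, which may not measure the gene. The platelet gene Pf4 stood at 11.3, 13.0 and 8.55 FPKM, but it was the only 1 of 10 platelet rows with that order, and the list summed to 266, 268 and 266 FPKM, led by a row that joins Gp1bb with Sept5. The 14 endothelial markers summed to 108 FPKM in control, 108 in unaffected and 111 in affected fetuses, with a median log2 ratio of 0.26 in affected against control over the 13 rows with a mean of at least 1 FPKM and a range of -0.26 to 0.50. The 10 pericyte and smooth muscle markers summed to 73.3, 75.1 and 68.9. The 12 macrophage and microglia markers summed to 85.1, 89.4 and 75.5 FPKM, and the 16 hypoxia response genes to 435, 468 and 406. The hypoxia sum was led by Ldha, at 233, 265 and 208 FPKM, and 6 of its 16 rows had the order of the adult globins. Over its 14 rows with a mean of at least 1 FPKM, the median log2 ratio against control was 0.001 in unaffected and -0.09 in affected offspring. The part of blood content in the globin values was not tested.

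All 12 cortical markers had a mean above 1 FPKM, which alone does not show which part of the brain was taken. They summed to 2848 FPKM in control, 2749 in unaffected and 3006 in affected fetuses, an order opposite to that of the adult globins. Tubb3, of all neurons, stood at 1809, 1807 and 1799 FPKM, while Tbr1, of deep-layer projection neurons, stood at 75.7, 62.1 and 98.3. The part of tissue makeup in the globin values was likewise not tested.

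**Figure D5:**
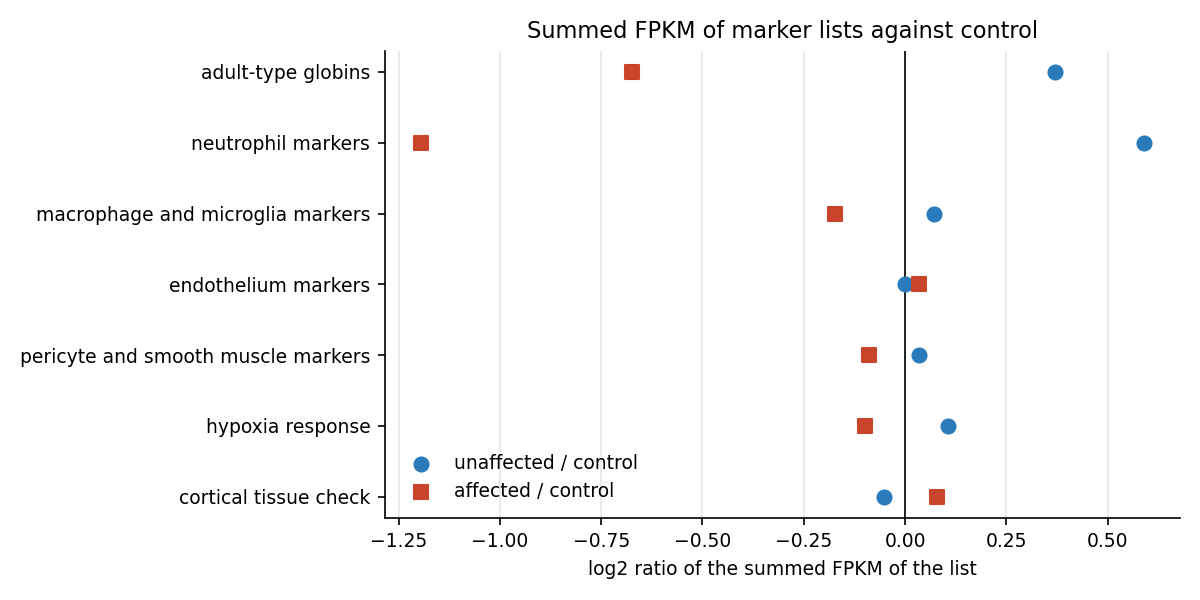
Log2 ratio to control of the summed FPKM of the 3 adult-type globin rows and of 6 marker lists, for unaffected (circles) and affected offspring (squares). Adult globins and neutrophil markers lie right of 0 in unaffected and left of 0 in affected offspring, at 15.1 and 4.39 FPKM against 10.04 for the neutrophil list, and the endothelial sums of 108 and 111 lie near 0.

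Some other genes had ratios close to those medians, which lie nearer to the alpha rows than to the beta row. With the pair of log2 ratios against control as the measure, the 8 loci nearest to the medians of the 3 adult-type rows (0.37 and -0.32), among 12351 loci with 1 name, were Art3, Ptpn18, Dmrtb1, Echdc2, Fam98c, Lhfpl5, Metap1d and 2010204K13Rik. Art3, the nearest, stood at 1.19, 1.54 and 0.945 FPKM, and 35 loci lay within a distance of 0.1 on the log2 scale. A level above control in unaffected and below it in affected offspring was held by 31.1% of the 15455 loci, and 1.07% were at least 1.5-fold above control in both exposed groups, as Hba-x and Hbb-y were.

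Some limits apply to all of these values. Rescaling each group to its total FPKM takes 0.34 from every unaffected to control log2 ratio, which leaves the adult-type median at 0.03, but between 61.6% and 67.9% of that total lies in 314 unnamed loci under 200 bases. Rescaled to loci with 1 name, which adds -0.08 to the unaffected and 0.16 to the affected ratios against control, the adult-type medians were 0.29 and -0.16, and list medians smaller than such a shift and of the opposite sign change direction. With 1 FPKM added to every value, the unaffected to control log2 ratio went from 1.27 to 0.62 for Slc4a1, from 1.81 to 1.15 for Hbb-y and from 0.95 to 0.62 for Hba-x, and the affected to control ratio from 1.42 to 0.87 for Hbb-y and from 0.78 to 0.49 for Hba-x.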

How the data were processed

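Per the labels' processing notes, the authors used Bowtie2 2.2.4.0, Cufflinks and Cuffdiff with mm10, while the methods name STAR and Bowtie with TopHat for 50-bp paired-end reads. The deposited FPKM are 1 value per group and locus, and the number of columns of single animals was 0. Values of the 9 single fetuses were not analysed here, so no test was made and no error or leave-one-out value is given. The deposited log2 fold changes, test statistics, p-values and q-values of the authors' own comparisons were not used. The labels and the methods also differ in the RNA extraction, Trizol or RNeasy.

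Members, lists and alternatives were chosen with earlier results of these data known. Log2 ratios were computed from the FPKM with no pseudocount, by Python 3.11.15 with pandas 2.3.3, and procedures were tested on simulated data. Past the fold means at least 1.5-fold with a mean of at least 1 FPKM. Named genes are the members, list rows past the fold (at most 5 for each list), Gata1, Klf1, Hmox1, Tfrc, Ahsp and Car2, the 8 nearest loci, and examples given for a list. Some single genes under this rule are not reported here. Library totals were not used here. Fragments were estimated from the lowest FPKM step of loci of like length, which stands for 1 fragment, with 95% exact Poisson intervals (scipy 1.17.1). They are approximate, since transcript lengths came from GENCODE M21. Coordinates count from 1.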

Additional observations from a re-analysis of the deposited data

How the results depend on the processing

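No paired analysis was possible because the table used here holds 1 value per group, and for the same reason no fetus was left out. Values of single fetuses were not analysed here. The adult-type rows are all joined, so leaving joined rows out gave no value for them or for the shares. The adult-type median log2 ratio in unaffected against control offspring, 0.37, was 0.035 after rescaling to the sum over all loci and 0.035 over loci that are no members. In affected against control it was -0.32, and -0.67 as the ratio of summed FPKM and -0.16 after rescaling to loci with 1 name, an alternative chosen after seeing the data. In affected against unaffected it was -0.70, and -0.39 over all loci, -0.39 over loci that are no members, -0.46 over loci with 1 name and -1.05 as summed FPKM. It kept its direction in all of these. Hba-x in affected against unaffected offspring turned from -0.17 to 0.13 over all loci, 0.13 over loci that are no members and 0.068 over loci with 1 name, and Alas2 in affected against control from -0.09 to 0.075 over loci with 1 name. Each rescaling shifts every locus of a comparison alike.

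Loci past the fold in either direction numbered 847 in unaffected against control, 1016 in affected against control and 1899 in affected against unaffected offspring. They numbered 1936, 3718 and 6055 at a log2 ratio of 0.32 (a lower fold), 309, 332 and 446 at 2-fold, 2569, 3079 and 4106 with no FPKM minimum, 219, 273 and 819 at a mean of at least 5 FPKM, and 88, 248 and 852 among loci with 1 name. For the 4 red cell lists the numbers were 1, 1 and 3. They were 0, 0 and 1 at 2-fold, 8, 7 and 16 with no minimum and 0, 0 and 1 at a mean of at least 5 FPKM, and at the lower fold 9 and 26 in the comparisons with affected offspring. A pseudocount of 1 FPKM took the ratio of Slc4a1 in affected against unaffected offspring from -1.17 to -0.58 and turned no member. Few fragments limit Hba-x and Hbb-y.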
